A study of Mus musculus with 2 samples.

Results

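Mural cells wrap the endothelial tube of blood vessels, as vascular smooth muscle around arteries and veins and as pericytes around capillaries. In the periosteum, the membrane that covers bone, they were sampled here among cells sorted for Ai9, the red fluorescent reporter that Cre recombinase switches on. A cell was taken as mural when it had a UMI (unique molecular identifier, 1 counted transcript molecule) of at least 3 of the 6 genes Myh11, Lmod1, Pln, Notch3, Atp1b2 and Rgs4, and of fewer than 3 of the 6 endothelial genes Cdh5, Pecam1, Flt1, Ptprb, Tie1 and Adgrl4. Of 12212 cells with 500 to 5000 detected genes and under 25% mitochondrial UMIs, 826 met this rule.

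The study placed 1 BD Rhapsody whole-transcriptome library of each genotype side by side, at 8 weeks of age, from the periosteum of femurs and tibias. Both genotypes carried Prx1 Cre and an Ai9 allele, and the second, Prx1 Cre; Ai9/+; Piezo1 fl/fl, also carried floxed alleles of Piezo1, a mechanically gated cation channel. Prx1 Cre is driven by a Prrx1 enhancer active in limb mesenchyme, so the Ai9 label marks cells by the past activity of that enhancer and not by their present state. The kept cells also held 641 and 1170 blood cells, those with at least 3 of 8 blood genes, and 283 and 188 endothelial cells. Which of the kept cells, mural cells among them, carried the label was not tested. With 1 library per genotype and no animal identity in the labels, a difference between genotypes cannot be told apart from a difference between libraries, and no test was made. The 95% intervals given below cover counting error only.

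Smooth muscle contracts when calcium entering the cell activates myosin light chain kinase, and it relaxes when nitric oxide raises cyclic GMP. The genes of this machinery are known to be switched on together by serum response factor and its partner myocardin, which act through CArG boxes, short AT-rich elements flanked by CC and GG. Pericytes have less of the contractile apparatus and are usually recognised by Rgs5, Pdgfrb, Cspg4 and, on capillaries, by potassium channel genes such as Kcnj8 and Abcc9.

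The promoters of 3 contractile genes whose transcripts were abundant in the mural cells are printed because they show what such an element looks like at a start site. Each window runs from 250 bases before to 50 bases after the RefSeq transcription start in GRCm38.p6, on the strand of the gene, and capitals mark a CArG box or a run that differs from one by 1 letter, searched on both strands. The windows lie at chr19:34255324-34255623 on the minus strand for Acta2 (smooth muscle actin), at chr2:156775214-156775513 on the plus strand for Myl9 (regulatory myosin light chain) and at chr9:67049164-67049463 on the minus strand for Tpm1 (tropomyosin), each running from upstream sequence into the start of the transcript.
Acta2: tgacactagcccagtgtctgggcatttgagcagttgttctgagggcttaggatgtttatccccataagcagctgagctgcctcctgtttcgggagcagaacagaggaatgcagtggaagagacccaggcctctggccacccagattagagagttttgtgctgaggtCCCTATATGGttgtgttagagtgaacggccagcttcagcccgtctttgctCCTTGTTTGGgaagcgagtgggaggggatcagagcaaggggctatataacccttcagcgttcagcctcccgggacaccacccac
Myl9: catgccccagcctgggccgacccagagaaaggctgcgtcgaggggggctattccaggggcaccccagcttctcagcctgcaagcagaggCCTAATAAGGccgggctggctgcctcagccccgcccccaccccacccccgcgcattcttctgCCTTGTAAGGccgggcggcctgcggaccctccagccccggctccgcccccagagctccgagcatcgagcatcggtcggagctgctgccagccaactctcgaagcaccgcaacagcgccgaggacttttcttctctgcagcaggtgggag
Tpm1: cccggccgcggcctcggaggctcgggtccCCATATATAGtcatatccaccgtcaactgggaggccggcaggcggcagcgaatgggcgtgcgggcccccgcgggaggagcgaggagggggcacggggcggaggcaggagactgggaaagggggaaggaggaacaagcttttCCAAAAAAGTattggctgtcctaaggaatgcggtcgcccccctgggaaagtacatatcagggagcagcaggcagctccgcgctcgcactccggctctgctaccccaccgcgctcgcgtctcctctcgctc
The exact box was present only in Myl9 of these 3, at 161 bases before the start. Over the contractile list, 3 of the 21 genes with a promoter sequence held an exact box (14.3%), and these were Myl9, Cnn2 (CCTTATAAGG) and Ldb3 (CCATTTATGG). Of all 27025 genes with such a window, 488 did (1.81%). Allowing 1 letter to differ, 9 of 21 contractile genes (42.9%) and 6419 of all genes (23.8%) had a match. Of 14 pericyte genes with a promoter sequence, 0 held the exact box and 3 (21.4%) the looser one. Some other gene lists had shares as high as the contractile one. The exact box was in 2 of 14 YAP pathway and mechanosensing genes (14.3%). The looser one was in 5 of 9 genes that rise during tissue digestion (55.6%) and in 7 of 13 energy genes (53.8%). Actg2, Myh11, Myocd, Nexn and Tagln had no entry. A match describes these letters and was not tested as a binding site.

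The control library held 346 mural cells among 5478 kept cells, 6.32% (exact binomial interval 5.69 to 6.99), and the Piezo1 fl/fl library 480 among 6734, 7.13% (6.52 to 7.77). The 2 intervals overlap. Mural cells had a median of 3563 and 3424.5 UMIs, near the 4126 and 3701 of all other kept cells, and their summed depth was 1489067 and 1957831 UMIs. Their median share of mitochondrial UMIs was 12.2% and 11.7%, against 4.85% and 4.68% in all other kept cells. With a limit of 10% instead of 25%, 113 and 142 mural cells were left, 2.33% and 2.36% of kept cells. The libraries shared 50 cell barcodes, none of them among mural cells. The other kept cells differed in make-up between the libraries. Blood cells were 11.7% and 17.4% of kept cells, endothelial cells 5.17% and 2.79%, fibroblasts 34.2% and 38.7%, and cells of no such class 42.3% and 33.7%. Genotype ratios in all other kept cells pool these classes, and the part of their mix in those ratios was not tested.

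At the threshold, 18 control and 32 Piezo1 fl/fl members had exactly 3 of the 6 mural genes, and 58 and 57 cells with 2 stayed outside. Smooth muscle markers that the rule did not use summed to 3826 and 8835 CPM (UMIs out of 1000000 UMIs of the cells summed) just inside and to 1042 and 426 CPM just outside. Col1a1, a collagen of bone and fibroblasts, stood at 9975 and 4895 CPM just inside and at 52126 and 44746 CPM just outside. All 6 genes were detected in 207 and 260 members. Another 16 and 25 cells met the mural condition and also had 3 or more endothelial genes, and were not counted as mural.

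The label was set against marker genes in both libraries. Of the 10 smooth muscle markers, 3 (Myh11, Lmod1 and Pln) belong to the rule, so their level is in part fixed by the choice of cells and is no independent check. Summed smooth muscle markers reached 26060 and 26848 CPM in mural cells and 124 and 222 CPM in endothelial cells, the class with at least 3 of the 6 endothelial genes. Summed pericyte markers reached 5341 and 5028 CPM, of which Rgs5, a regulator of G protein signalling, alone made up 4387 and 4074. Of 6 genes used here for capillary pericytes, 3 were sparse. Kcnj8, the pore of a potassium channel gated by ATP, was at 17.5 and 18.4 CPM. Vtn (vitronectin) was at 22.8 and 19.9 CPM, and Colec11 (a collectin) at 1.34 and 4.60 CPM. Abcc9, Higd1b and Steap4 were higher than these in both libraries, and their levels by cluster are given below. Of the 6 genes, 233 of 346 and 327 of 480 mural cells had none, 75 and 105 had 1, and 38 and 48 had 2 or more. Of the 10 pericyte markers, 4 or more were found in 75 and 121 mural cells. Outside the mural class, as many were found in 12 and 15 of the cells that met both the mural and the endothelial condition. They were also found in 14 and 28 fibroblasts, in 1 and 2 endothelial cells, in 0 and 2 blood cells and in 11 and 5 cells of no class. Whether these cells are pericytes that the rule leaves out was not tested.

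Markers of other cells were low but present. The 12 endothelial markers summed to 273 and 246 CPM, of which Esam, an adhesion molecule also known from mural cells, made up 237 and 230, and the other 11 were each under 10 CPM. Fibroblast markers summed to 1513 and 1214 CPM, tendon markers to 561 and 490 CPM, and skeletal muscle markers to 8.06 and 4.09 CPM. Osteoblast lineage markers summed to 518 CPM in control and 115 CPM in Piezo1 fl/fl, and blood markers to 324 and 621 CPM, so these 2 sets differed between the libraries. At least 3 fibroblast or at least 3 blood genes were found in 16 and 22 mural cells, called mixed below. A doublet caller, Scrublet, marked 14 and 15 mural cells. Piezo1 itself was nearly undetected, with 4 UMIs in control and 1 in Piezo1 fl/fl mural cells, and since only the ends of transcripts may be counted, which can lie outside the floxed part, its deletion was not checked in them. Prrx1, whose enhancer drives the Cre, was at 248 and 233 CPM in mural cells and at 823 and 640 CPM in all other kept cells.

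**Figure D1:**
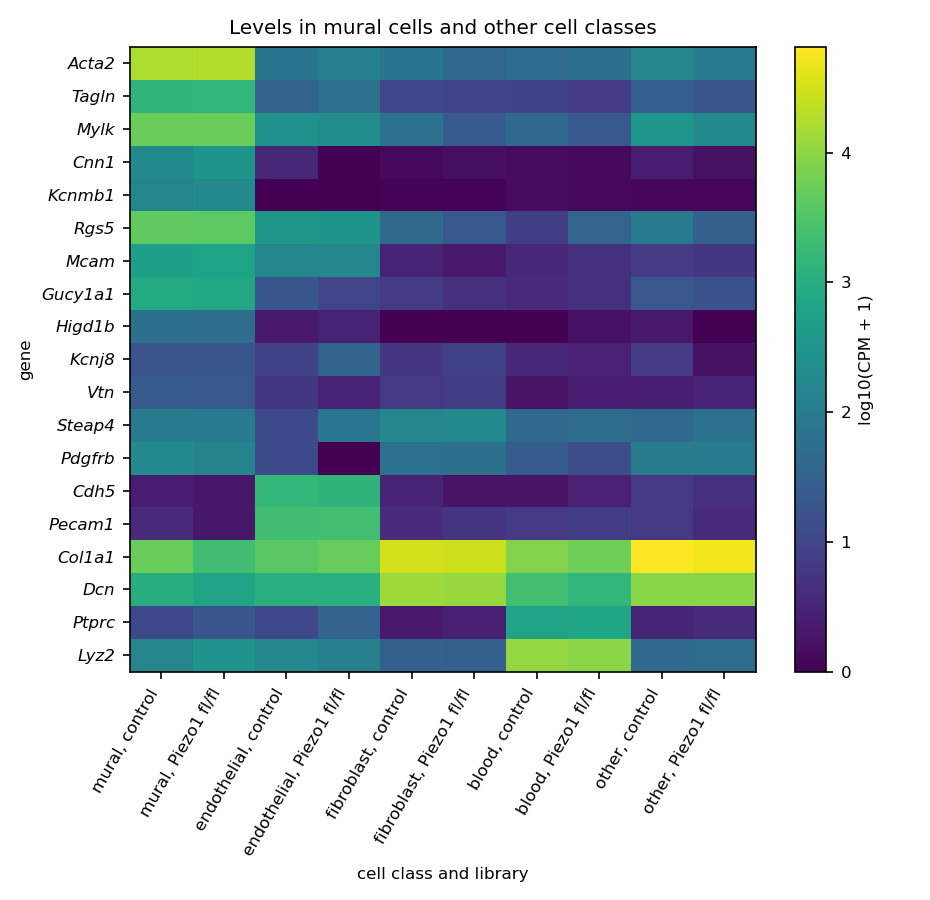
Level of 19 genes (rows) in the summed UMIs of 5 cell classes of each library (columns), as log10(CPM + 1) on the colour scale. Acta2, Tagln, Mylk and Rgs5 are brightest in the 2 mural columns, Cdh5 and Pecam1 in the endothelial ones, and Kcnj8 and Vtn stay under 2 in every column.

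The contractile apparatus set mural cells apart from all other kept cells in both libraries. The rule chose the members by 2 of the 26 contractile genes, and cells chosen for those are also rich in the rest, so the ratios that follow are descriptions without a test. Acta2 stood at 16714 CPM in control and 17878 CPM in Piezo1 fl/fl mural cells, against 119 and 81.8 CPM in all other kept cells. It was found in 98.6% and 99.4% of mural cells and in 15.2% and 16.0% of endothelial cells, which do not make it, at medians of 3563 and 3424.5 UMIs per mural cell and 2157 and 2207 per endothelial cell. Mylk, the kinase that starts contraction, was at 5338 and 5466 CPM, Myl9, its substrate, at 4295 and 4593 CPM, and Tpm1 at 5714 and 6435 CPM. Tagln, an actin-binding protein, was at 1404 and 1445 CPM. Cnn1 (calponin), known from mature smooth muscle, was at 191 and 304 CPM and detected in 36.4% and 49.0% of mural cells.

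Over all genes, 575 of 9309 in control (6.18%) and 579 of 9227 in Piezo1 fl/fl (6.28%) were at least 4-fold higher in mural cells, from 10 or more UMIs and 10 or more CPM, and 12.2% and 12.5% were at least 4-fold lower. Of the 26 contractile genes, 25 were at least 4-fold higher in either library, with a median log2 ratio of 5.20 and 6.25 where the median of all genes was -0.09 and -0.10. The exception was Cnn2, the calponin of non-muscle cells, with a log2 ratio of 1.64 in both libraries. Of 19 tested pericyte genes, from a list that holds 1 gene of the rule, 13 and 12 were at least 4-fold higher. In each library 1 was at least 4-fold lower, and the medians were 2.99 and 3.05. The regulators differed, and Myocd is itself 1 of the 26 contractile genes. Myocd, which encodes myocardin, was at 88.6 CPM in control mural cells and 0.43 CPM in all other kept cells, a log2 ratio of 7.70 (6.81 to 8.74), and at 72.5 and 0.37 CPM in Piezo1 fl/fl, a log2 ratio of 7.60 (6.72 to 8.64). Srf was at only 30.2 and 30.1 CPM, with log2 ratios of 1.33 and 1.41.

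**Figure D2:**
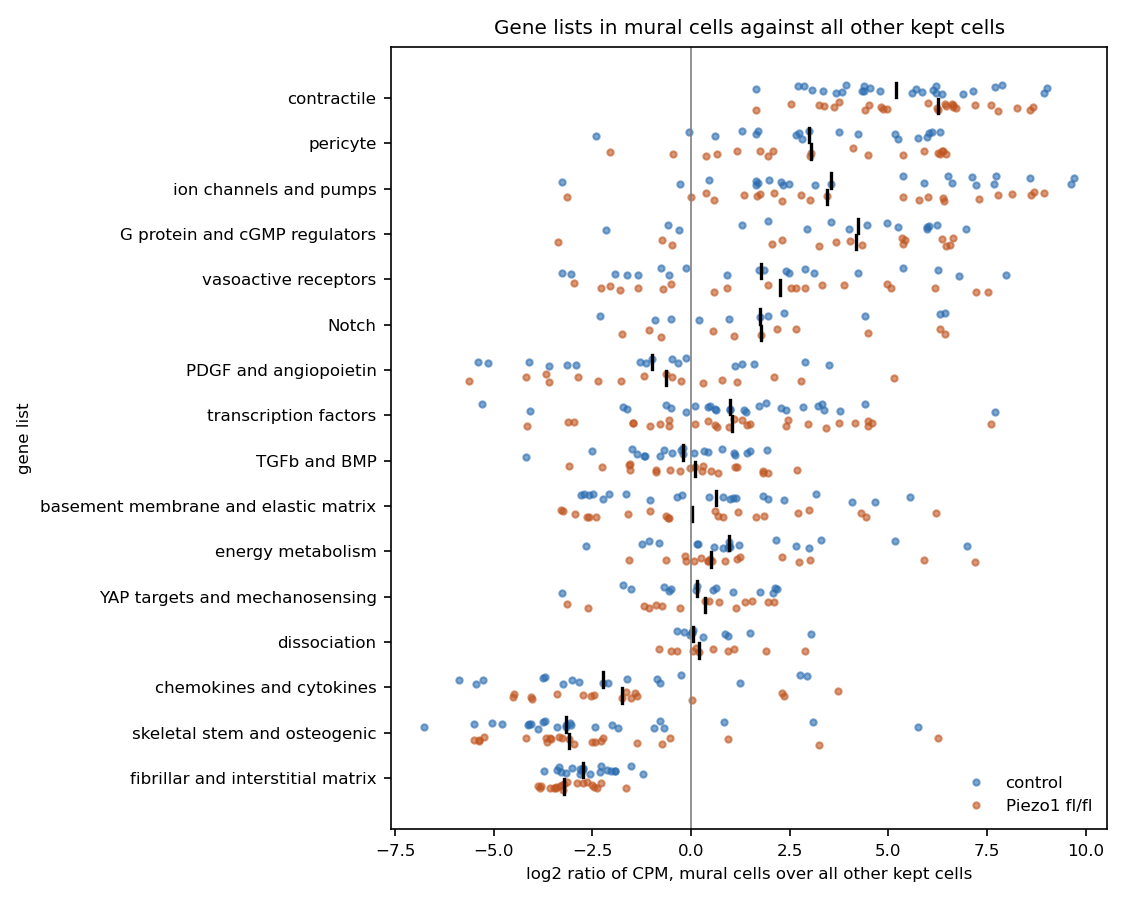
Log2 ratio of CPM in mural cells over all other kept cells (x axis) for each tested gene of 16 lists (rows), with control in blue, Piezo1 fl/fl in orange and the median of each as a black bar. Contractile genes lie farthest to the right, with medians of 5.20 and 6.25, and fibrillar matrix and skeletal genes lie to the left of 0.

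Ion handling genes were also high. Of 23 tested channels and pumps, 16 were at least 4-fold higher in each library, 2 of which belong to the rule. Kcnmb1, the subunit that tunes the large calcium-gated potassium channel of smooth muscle, was at 163 and 186 CPM in mural cells and at 0.19 and 0.48 CPM elsewhere, a log2 ratio of 9.72 (8.47 to 11.35) and 8.61 (7.85 to 9.50). Its pore gene Kcnma1 showed no such gap, with log2 ratios of 0.46 and 0.01. Kcnk3, a background potassium channel, was at 195 and 199 CPM, and Kcna5, a voltage-gated one, at 318 and 322 CPM. Kcna5 was also found in 25.4% and 26.1% of endothelial cells. Casq2, the calcium store protein calsequestrin, was at 414 and 434 CPM, and Ryr2, a calcium release channel, at 63.8 and 51.1 CPM with log2 ratios of 7.68 and 6.38. Kcnk3, Casq2 and Ryr2 were each under 2 CPM in all other kept cells of both libraries.

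Receptors for vasoactive signals differed from one another. Of 20 tested, 9 in control and 10 in Piezo1 fl/fl were at least 4-fold higher. Npy1r, the receptor for the sympathetic transmitter neuropeptide Y, was at 856 and 812 CPM against 11.1 and 5.47 CPM elsewhere. P2rx1, a cation channel opened by ATP, was at 137 and 113 CPM with log2 ratios of 7.98 and 7.53. S1pr3, a sphingosine 1-phosphate receptor, was at 387 and 404 CPM, Ednra, an endothelin receptor, at 183 and 196 CPM, and Avpr1a, a vasopressin receptor, at 56.4 and 70.0 CPM. Adra1a, an adrenergic receptor, was scarce, at 21.5 and 14.8 CPM in mural cells and 0.19 and 0.20 CPM elsewhere. Npr1 and Ptger4, receptors for natriuretic peptide and prostaglandin E2, were lower in mural cells, with log2 ratios of -3.28 and -2.96 for Npr1 and -1.94 and -2.05 for Ptger4.

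The cyclic GMP and G protein branch was also high, with 11 and 13 of 16 tested genes at least 4-fold higher and medians of 4.23 and 4.18 on the log2 scale. Gucy1a1 and Gucy1b1, the subunits of the nitric oxide receptor, were at 883 and 754 CPM and at 410 and 411 CPM. Pde3a, which breaks down cyclic nucleotides, was at 1277 and 1226 CPM and Pde5a, which acts on cyclic GMP, at 624 and 405 CPM. Rasl11a, a small GTPase, was at 1432 and 1481 CPM. Among Notch genes, apart from Notch3 of the rule, the targets Hey2 (80.6 and 109 CPM, log2 ratio 6.44 in both), Heyl (118 and 100 CPM) and Hes1 (861 and 898 CPM) were at least 4-fold higher. In all, 4 and 5 of 11 tested Notch genes were.

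Over all genes, those with the highest ratios in both libraries were chosen by rank. Of the 15, 3 belong to the rule, and Kcnmb1, Kcnk3, Cnn1, Casq2, Myocd and P2rx1 are given above. The others were Cdh6, a cadherin, at 207 and 222 CPM with log2 ratios of 8.92 (8.06 to 9.94) and 8.97 (8.18 to 9.89), and Olfr558, an odorant receptor gene, at 1091 and 857 CPM with log2 ratios of 7.95 and 8.10. Olfr558 was detected in 86.4% and 81.7% of mural cells and in 2.1% and 1.6% of endothelial cells. Scn4b, a sodium channel subunit, was at 337 and 311 CPM, Slc38a11, an amino acid transporter, at 146 and 110 CPM, and Gpr20, an orphan receptor, at 85.3 and 92.4 CPM. The list ended with Gm13861, for which no role is given, at 163 and 144 CPM. Each of these 6 genes was at under 5 CPM in all other kept cells.

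Transcription factor genes were mixed, with 9 of 27 and 10 of 28 at least 4-fold higher. Beside Myocd these included Epas1, a hypoxia-inducible factor, at 1154 and 1213 CPM, and Nr2f2, known from veins, at 850 and 679 CPM. They also included Tbx2 at 210 and 220 CPM and Mef2c at 579 and 576 CPM. Epas1 was found in 89.0% and 87.2% of endothelial cells as well. Of the energy genes, 6 of 19 and 5 of 18 were at least 4-fold higher. Slc2a4, the insulin-responsive glucose transporter, was at 167 and 178 CPM with log2 ratios of 6.99 and 7.19, and Cox4i2, an isoform of a respiratory chain subunit, at 142 and 162 CPM with 5.18 and 5.90. The whole energy list had medians of 0.96 and 0.50.

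Matrix genes split by kind. Fibrillar and interstitial matrix was lower in mural cells throughout, with 16 and 19 of 20 genes at least 4-fold lower and medians of -2.73 and -3.23. Col1a1 was at 5275 and 2141 CPM against 42663 and 31360 CPM elsewhere. It was detected in 93.4% and 84.6% of mural cells and in 89.0% and 77.1% of endothelial cells, where its level was 3777 and 5066 CPM. Its level in mural cells was thus above that of endothelial cells, which do not make it, in control and below it in Piezo1 fl/fl. Of 22 basement membrane and elastic genes, 5 were at least 4-fold higher in each library and 6 lower. The high ones included Itga7, a laminin receptor, at 283 and 268 CPM, Lama5, a laminin chain, at 152 and 134 CPM, and Sparcl1, a matrix glycoprotein, at 8641 and 8791 CPM. Col15a1, Lama2 and Nid1 were lower, with log2 ratios between -2.94 and -2.22.

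Genes of skeletal stem and osteogenic cells were low, with 17 of 24 and 17 of 23 at least 4-fold lower. Pdgfra, a mesenchymal receptor, was at 30.2 and 37.3 CPM against 516 and 477 CPM elsewhere, and Lepr (leptin receptor) at 6.72 and 10.7 CPM. The members that were at least 4-fold higher were Mcam (CD146), at 520 and 608 CPM, and Nes (nestin), with log2 ratios of 3.09 and 3.25. Both are also known from vessel walls. Among secreted factors, Kitl (stem cell factor) was at 529 and 629 CPM, Pdgfa at 537 and 497 CPM, Il34, a ligand of the receptor of macrophage growth factor, at 81.9 and 59.8 CPM, and Angpt2, which loosens the endothelial layer, at 60.4 and 77.1 CPM. Of these, Kitl was also detected in 74.2% and 65.4% of endothelial cells. Cxcl12 was lower than elsewhere, at 154 and 133 CPM against 267 and 344 CPM. The PDGF and angiopoietin list as a whole had medians of -0.98 and -0.64, the TGF-beta and BMP list of -0.20 and 0.11, the YAP list of 0.15 and 0.35, and 2 tested cell cycle genes were lower.

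Genes that rise during tissue digestion were not shared evenly. Of 11, Nr4a1, an immediate early nuclear receptor, was at least 4-fold higher in both libraries, at 2686 and 3211 CPM against 328 and 433 CPM elsewhere. Fos was at 7805 and 9915 CPM, with log2 ratios of 0.86 and 1.08. The list had medians of 0.04 and 0.21.

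Within the mural cells, smooth muscle and pericyte markers did not rise together. The 10 smooth muscle markers made up a median of 2.57% and 2.70% of the UMIs of a cell, and the 10 pericyte markers 0.143% and 0.153%. The pericyte share ran from 0 to 10.0% in control and to 6.76% in Piezo1 fl/fl. Pericyte UMIs outnumbered smooth muscle UMIs in 46 of 346 and 60 of 480 cells. Rgs5 was detected in 57.8% and 60.8% of mural cells and in 20.8% and 13.8% of endothelial cells. After each cell was thinned to 1300 UMIs, which left out 18 and 42 mural cells and 77 and 40 endothelial cells, these shares were 47.9% and 51.4% against 13.6% and 8.78%. Without thinning, Kcnj8 was detected in 3.76% and 3.96% of mural cells and in 1.77% and 3.19% of endothelial cells. Its detection in mural cells as a whole was thus near the background. The mural cells were deeper, with medians of 3563 and 3424.5 UMIs against 2157 and 2207 in endothelial cells.

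**Figure D3:**
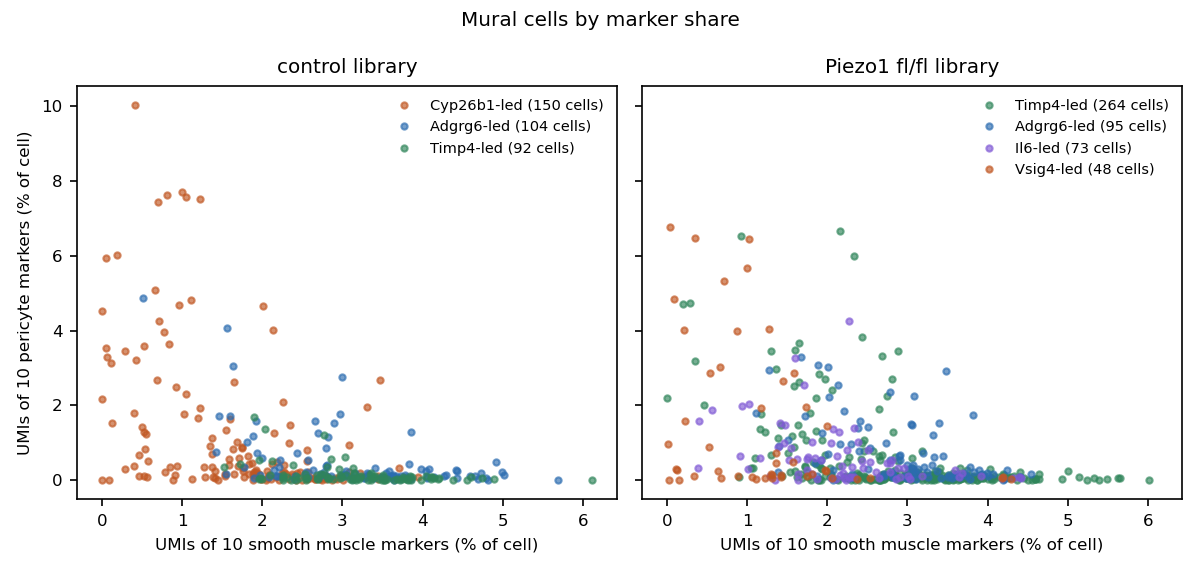
Each point is 1 mural cell, with the share of its UMIs in 10 smooth muscle markers on the x axis and in 10 pericyte markers on the y axis, coloured by cluster, control at left and Piezo1 fl/fl at right. Most cells lie along the x axis, with medians of 2.57% and 2.70%, and the cells with a pericyte share over 4% have under 2.5% of smooth muscle markers.

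The mural cells of each library were clustered alone, without the genes of the 17 lists and the markers. Clusters are called here by a leading gene, and their sizes are not compared between libraries. A leading gene is a description of the cluster it led, and each was named after its values were seen. A pattern found in both libraries rests on clusters made apart, so the 10 leading genes of each cluster were looked up in the other library.

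The Timp4-led clusters (92 cells in control, 264 in Piezo1 fl/fl) had the lowest pericyte markers of their library, summed to 1271 and 3475 CPM. Timp4, an inhibitor of matrix metalloproteinases, was at 834 CPM against 124 CPM in the other control mural cells, and at 692 against 113 CPM in Piezo1 fl/fl. Angpt4, an angiopoietin, and Npnt, an integrin ligand, led them too. The 10 leading genes of the control cluster were all higher in the Piezo1 fl/fl cluster, with a median log2 ratio of 1.03. Ryr2, not used for clustering, was at 120 against 48.7 CPM in control and at 74.3 against 31.8 CPM in Piezo1 fl/fl.

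The Adgrg6-led clusters (104 and 95 cells) shared a set of signalling genes. Adgrg6, an adhesion receptor, was at 390 against 29.8 CPM in control and at 265 against 37.6 CPM in Piezo1 fl/fl. Pcsk1, a prohormone convertase, and Mapt, which encodes tau, led them as well. All 10 leading genes of the control cluster were higher in the Piezo1 fl/fl one, with a median of 2.43. S100a9 and S100a8, genes of neutrophils, were also among the leading genes in both, yet in the control library 185 of 189 UMIs of S100a9 and 138 of 142 of S100a8 came from 1 cell. Of genes left out of clustering, Casq2 was at 683 against 256 and at 836 against 308 CPM, and Ednrb, an endothelin receptor, at 350 against 84.2 and at 479 against 165 CPM. Both were higher in the Adgrg6-led cluster of each library.

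In the Piezo1 fl/fl library 73 cells formed an Il6-led cluster. Il6 was at 1977 CPM there against 90.6 CPM in its other mural cells, and Adamts4, a protease of proteoglycans, at 952 against 37.8 CPM. Avpr1a was at 347 against 21.6 CPM and Cxcl1, a neutrophil-attracting chemokine, at 1471 against 269 CPM. Nr4a1 was at 7226 against 2510 CPM, while Fos was lower, at 7508 against 10334 CPM. At this resolution the control library had no separate cluster of this kind, but at resolution 0.8 it had one of 44 cells led by Adamts4 and Il6, in which all 10 leading genes were at least 2-fold higher, with a median of 3.05. At resolution 0.4 those genes lay in the Cyp26b1-led cluster. There, all 10 leading genes were higher in the Cyp26b1-led cluster, with a median of 1.62, and Il6 was at 363 against 39.1 CPM in it.

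In each library the cluster with the highest mean log2 ratio of the 10 pericyte markers was picked. These were the Cyp26b1-led one in control (150 cells) and the Vsig4-led one in Piezo1 fl/fl (48 cells). The median pericyte share of a cell was 0.285% in the Cyp26b1-led cluster, the highest of control. In the Vsig4-led cluster it was 0.277%, with an upper quartile of 2.71%. The Adgrg6-led and Il6-led clusters of that library had medians of 0.282% and 0.329%. The Cyp26b1-led and Vsig4-led clusters were not named pericytes, because matrix and macrophage genes led them. Cyp26b1, which clears retinoic acid, Fst (follistatin) and Mfap5 led the control cluster, and the macrophage genes Vsig4, F13a1 and C1qa led the other. All 10 leading genes of the control cluster were higher in the Piezo1 fl/fl one, with a median of 4.17. Rgs5 was at 8255 against 1624 CPM in control and at 6520 against 3613 CPM in Piezo1 fl/fl. Kcnj8 was at 37.1 against 3.45 and at 87.0 against 5.46 CPM, Abcc9, its regulatory subunit, at 124 against 41.4 and at 232 against 18.2 CPM, and Steap4, a metalloreductase, at 181 against 29.9 and at 319 against 50.4 CPM. Higd1b, a mitochondrial protein, was higher in the control cluster alone, at 102 against 27.6 CPM, and in Piezo1 fl/fl was at 48.3 against 51.6 CPM. At resolution 0.8 the Piezo1 fl/fl library also had a cluster of 133 cells with Fabp4, Steap4 and Rgs5 among its leading genes. Rgs5 was at 6818 against 3660 CPM there, and 2 of its cells had at least 3 fibroblast or at least 3 blood genes. Its mean log2 ratio of pericyte markers was 0.46, against 1.29 in the Vsig4-led cluster of that resolution. Its cells had a median of 1820 UMIs.

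The Cyp26b1-led and Vsig4-led clusters held most of the mixed cells, 14 of 16 and 15 of 22. Their fibroblast markers summed to 3024 and 6217 CPM, against 213 to 452 CPM in the other clusters, and their blood markers to 659 and 3212 CPM, against 44.0 to 203 CPM. Their median mitochondrial share was 9.22% and 6.99%, the lowest of each library. The part of other cells in their profile was not tested.

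**Figure D4:**
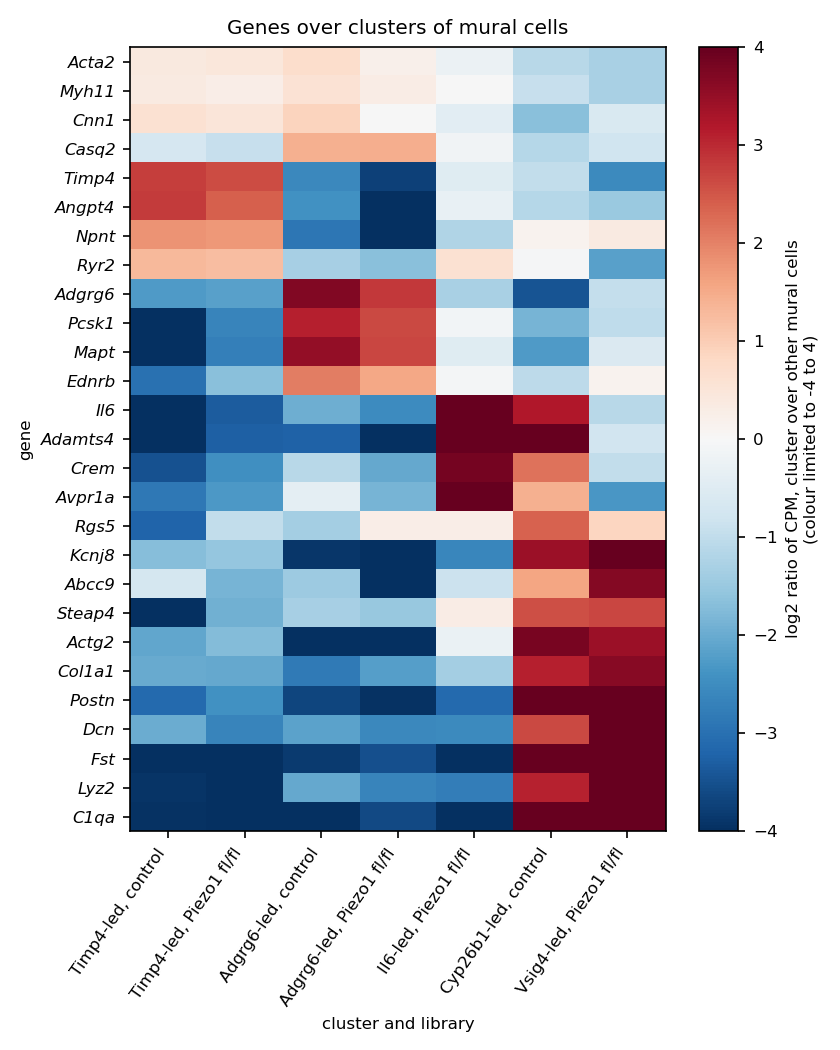
Log2 ratio of CPM in each cluster over the other mural cells of its library (colour, limited to -4 to 4) for 27 genes (rows), with clusters of like leading genes side by side. The Timp4-led and the Adgrg6-led pairs show the same genes in red in both libraries, and the rightmost pair joins Rgs5, Kcnj8, Abcc9 and Steap4 with Col1a1, Dcn and macrophage genes.

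The other clusters (196 and 432 cells) were set against the Cyp26b1-led and Vsig4-led ones (150 and 48 cells). Contractile genes were higher in the former, though the list had been left out of clustering. Acta2 was at 21512 against 9998 CPM in control and at 19723 against 8089 CPM in Piezo1 fl/fl, and Tpm2 at 4765 against 1871 and at 4127 against 1653 CPM. At least 2-fold with 50 UMIs and 50 CPM, 119 of 2863 tested genes (4.16%) were higher and 258 (9.01%) lower in control, and 396 of 2462 (16.1%) and 257 (10.4%) in Piezo1 fl/fl. Of the contractile list 7 of 25 and 17 of 26 were at least 2-fold higher, with medians of 0.87 and 1.12 beside 0.06 and 0.29 for all genes. Actg2, the actin of visceral smooth muscle, went the other way, with log2 ratios of -3.81 (-6.16 to -2.12) and -3.41 (-3.96 to -2.88). Reads that Actg2 shares with the nearly identical Acta2 may be split between them in a way the sources used here do not state. Several lists beside the contractile one were also lower in the Cyp26b1-led and Vsig4-led clusters than in the other clusters, mostly in Piezo1 fl/fl. Medians were 0.08 and 0.79 for pericyte genes, 0.56 and 1.10 for channels and pumps, and 0.53 and 1.30 for vasoactive receptors. They were 0.17 and 0.93 for cyclic GMP and G protein genes, and -0.03 and 0.86 for Notch genes.

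By rank over all genes, the largest ratios in this direction beside the S100 genes and Retnlg, which came from 1 control cell in 81 of 82 UMIs, were those of E030013I19Rik, Pdp2, P2rx1, Sbspon, Asb2, Rasl10b and Prkag2. P2rx1 was at 192 against 59.6 CPM in control and at 131 against 19.3 CPM in Piezo1 fl/fl. Asb2, a ubiquitin ligase subunit, was at 195 against 64.5 and at 149 against 48.3 CPM. In the other direction stood Fst, Tgfbi, Mfap5, Col5a3, H2-Eb1, Postn, Vcan, Plxdc2, Col12a1 and Adgrf5. Among them Fst, Tgfbi, Mfap5, Col5a3, Postn, Vcan and Col12a1 encode secreted proteins. Fst was at 193 against 5.76 CPM in control and at 1144 against 12.7 CPM in Piezo1 fl/fl, where 163 of its 376 UMIs came from 1 cell. H2-Eb1, an antigen-presenting gene, had 111 of 120 Piezo1 fl/fl UMIs in 1 cell. Of the fibrillar matrix genes tested, 18 of 19 in control and 20 of 20 in Piezo1 fl/fl were at least 2-fold higher in the Cyp26b1-led and Vsig4-led clusters.

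Between the genotypes, the contractile program of mural cells was nearly level. Acta2 was at 16714 CPM in control and 17878 CPM in Piezo1 fl/fl, a log2 ratio of 0.10 (0.07 to 0.12), and Rgs5 at 4387 and 4074 CPM, a log2 ratio of -0.11 (-0.15 to -0.06). A gene was counted here if the larger value came from 100 or more UMIs and was 50 CPM or more, and of 3020 such genes 16 were at least 2-fold higher in Piezo1 fl/fl (0.53%) and 20 at least 2-fold lower (0.662%), with a median of 0.02. Of 26 contractile genes, 1 was at least 2-fold higher, Actg2, and 0 lower, with a median of 0.05. Cnn1 was at 191 and 304 CPM, a log2 ratio of 0.67 (0.46 to 0.88). None of the pericyte (16 of 20 tested), channel (17 of 27), vasoactive (7 of 28), cyclic GMP and G protein (15 of 17) or Notch genes (8 of 16) passed the 2-fold limit. At the shares of all genes given above, few among so small a number would be past it, and most vasoactive receptors were not tested. Pde5a was at 624 and 405 CPM, a log2 ratio of -0.63 (-0.76 to -0.49).

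Of the 16 genes higher in Piezo1 fl/fl mural cells, 7 encode chemokines, interleukin 6 or proteins of NF-kappaB signalling, a grouping made after the values were seen. Cxcl1 was at 187 CPM in control and 448 CPM in Piezo1 fl/fl, a log2 ratio of 1.26 (1.07 to 1.46), and was detected in 72 and 157 cells. Il6 was at 174 and 371 CPM, a log2 ratio of 1.09 (0.89 to 1.30), in 46 and 82 cells. In all other kept cells the log2 ratio of Il6 was 0.01 and that of Cxcl1 0.39. Of the 16 genes, 14 had a log2 ratio above 0 in those cells too, and 3 were at least 2-fold higher there. Il6 was highest in the Cyp26b1-led cluster of control and in the Il6-led cluster of Piezo1 fl/fl, so a comparison by cluster sets different cells side by side. Between the Cyp26b1-led and Vsig4-led clusters the log2 ratio was -0.96 for Il6, -0.38 for Cxcl2 and 0.28 for Cxcl1. The chemokine gene Cxcl2 was at 46.3 and 139 CPM (1.59) and Ccl3, which attracts monocytes, at 9.40 and 65.4 CPM (2.80), from 14 and 128 UMIs. Without the mixed cells, an alternative added after the data were seen, the log2 ratio of Ccl3 was 2.00, with an interval that began at 0.43. Tnfaip3, an inhibitor of NF-kappaB signalling, was at 21.5 and 59.8 CPM (1.48), and Nfkbia and Nfkbiz, of the same pathway and named after their values were seen, had log2 ratios of 1.01 and 1.07. Of 7 tested chemokine and cytokine genes, 3 were at least 2-fold higher. The median log2 ratio of these 7 was 0.28 in mural cells and 0.30 in all other kept cells. The immediate early genes of digestion had a median log2 ratio of 0.32, with 9 of 11 above 0, and their part in these ratios was not tested.

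Several other genes in this direction rested on few cells or were also higher elsewhere. Rab6b, a small GTPase of vesicle traffic, was at 45.7 and 126 CPM, a log2 ratio of 1.47 (1.07 to 1.88), spread over 50 and 171 mural cells, and had a log2 ratio of 2.50 in endothelial, 1.98 in fibroblast and 1.95 in blood cells. Arrdc3, Gem, Plekhf1 and C1qc, named after their values were seen, had log2 ratios of 1.17, 1.05, 1.02 and 1.10 in mural cells and of 0.40, 0.27, 0.02 and 0.24 in all other kept cells. Srgn and Fcer1g, genes of blood cells, were at 26.9 and 79.2 CPM and at 26.9 and 65.9 CPM. Blood markers summed to 324 and 621 CPM in the same cells, and without the mixed cells the log2 ratios were 0.56 and 0.44. Actg2 was at 22.2 and 69.0 CPM, from 33 UMIs in 10 cells and 135 UMIs in 31 cells. Fst had a log2 ratio of 1.19, and 0.73 without the 1 cell of each library that held the most of its UMIs.

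Of 20 fibrillar and interstitial matrix genes, 4 were at least 2-fold lower in Piezo1 fl/fl mural cells (Col1a1, Col1a2, Postn and Tnn), with a median of -0.62 for the list. Postn (periostin) was at 578 and 128 CPM, a log2 ratio of -2.17 (-2.38 to -1.97), and Tnn (tenascin N) at 308 and 53.6 CPM, a log2 ratio of -2.52 (-2.84 to -2.21). Col11a1 had 426 UMIs in control and 49 in Piezo1 fl/fl (-3.51) and Thbs2, a matrix thrombospondin, at 208 and 61.3 CPM (-1.76). Angptl7, a secreted angiopoietin-like protein, was at 169 and 17.4 CPM (-3.28), and Ibsp, a bone matrix protein, at 119 and 26.6 CPM (-2.16). Few cells carried them: 175 of the 426 control UMIs of Col11a1, 89 of 251 of Angptl7 and 83 of 177 of Ibsp were in 1 cell. Without the 1 cell with the most UMIs of the gene in each library, the log2 ratios were -3.17, -2.78 and -1.64. With the Scrublet doublets left out, that of Angptl7 was -1.06. Outside the Cyp26b1-led and Vsig4-led clusters, that of Ibsp was 0.32.

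Col11a1, Angptl7, Tnn and Postn were also lower in the rest of the Piezo1 fl/fl library. In all other kept cells the log2 ratio was -1.42 for Col11a1, -0.95 for Angptl7, -1.76 for Tnn and -1.32 for Postn. The make-up of that pool differed between the libraries, and its part in these ratios was not tested. Col1a1 was at 5275 and 2141 CPM in mural cells, a log2 ratio of -1.30, at -0.44 in all other kept cells and 0.42 in endothelial cells. Within the Cyp26b1-led and Vsig4-led clusters the log2 ratio of Col1a1 was -0.20, and within the other clusters -0.74. Beside these ratios, fibroblast markers in mural cells summed to 1513 and 1214 CPM and osteoblast lineage markers to 518 and 115 CPM, and their part in them was not tested.

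Cyp26b1 and Pappa2, a protease of growth factor binding proteins, were lower over all mural cells, with log2 ratios of -2.60 and -2.25, but not outside the Cyp26b1-led and Vsig4-led clusters, where they were 2.66 and 3.47. The control cells of those other clusters held few UMIs of them, and at resolution 0.8 Pappa2 was at 399 CPM in the control cluster led by Adamts4 and Il6, against 45.1 CPM in the other control mural cells. The other clusters thus hold different cells in each library. Ccn1 and Amotl2, targets of the mechanically responsive YAP pathway, were the 2 of 10 tested YAP genes past the limit. Over all genes, 20 of 3020 (0.662%) were at least 2-fold lower. The 10 YAP genes had a median log2 ratio of -0.09 in mural cells, with 3 above 0, and of -0.18 in all other kept cells. Ccn1 was at 836 and 413 CPM, a log2 ratio of -1.02 (-1.15 to -0.89), in 201 and 195 cells, and at -0.12 in all other kept cells. Amotl2 was at 115 and 50.1 CPM, a log2 ratio of -1.20 (-1.57 to -0.83), in 105 and 68 cells, and at -0.58 elsewhere. The cell with the most held 56 and 40 UMIs of Ccn1 and 9 and 7 of Amotl2. Under the 10% mitochondrial limit both were within 2-fold, at -0.24 for Ccn1 and -0.73 for Amotl2. Between the Cyp26b1-led and Vsig4-led clusters they were 0.12 and -0.28 (-0.88 to 0.28).

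**Figure D5:**
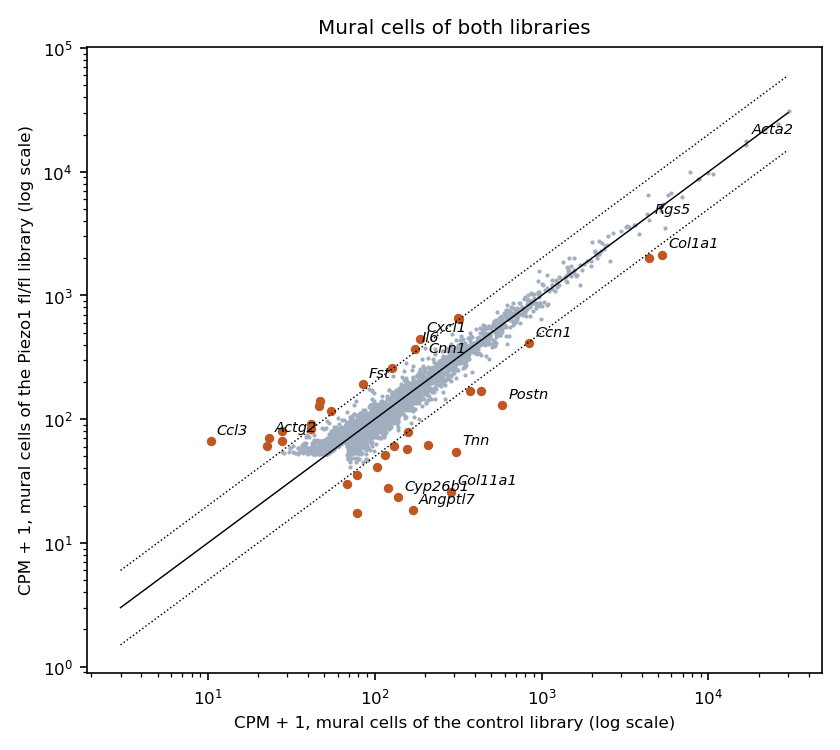
CPM + 1 of each gene in control (x axis) and Piezo1 fl/fl mural cells (y axis), both on log scales, with equality as a solid line, 2-fold limits as dotted lines and genes past them in orange. Acta2 and Rgs5 lie on the solid line, Ccl3, Cxcl1 and Il6 above the limits, and Postn, Tnn, Col11a1 and Angptl7 below them.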

How the data were processed

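Periosteum was digested with enzymes, Ai9-positive cells were sorted, and each library was given by the authors as raw UMI counts, genes by cells, without normalization. The submitters' processing notes name fastp, UMI-tools, STAR and Seurat 4.0.3, and the genome build, annotation and treatment of reads shared by similar genes are not given in the sources used here. Feature IDs were matched to GENCODE vM21, where 31107 of 31253 were found. The libraries had 6118 and 7469 barcodes and 28030299 and 32337308 UMIs. They were kept apart and not integrated.

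UMIs were summed over the cells of a class and divided by the class total (CPM, scaled to 1000000, without length correction). Ratios of CPM carry exact 95% intervals for a pair of Poisson counts, and shares exact binomial ones, for counting error only. Where either count was 0, 0.5 was added to both. Scrublet doublets were kept in the main values. With 1 library per genotype no p-value was computed. Seurat 5.3.0 in R 4.3.3 clustered the mural cells of each library (2000 variable features less the genes of the lists and markers, 20 principal components, Louvain resolution 0.4). Other steps used Python 3.11.15, numpy 2.4.6, scipy 1.17.1 and, for Scrublet, scanpy 1.11.5. The scripts were tested on simulated data.

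The members, marker genes and lists were chosen with earlier results of these data known. Named genes were those of the lists, the 15 with the highest mural ratio in both libraries, the 8 with the largest genotype ratio in each direction and the 10 in each direction between clusters. Leading genes of clusters and other genes said to be so were named after their values were seen. The alternatives tried were other limits on detected genes, mitochondrial share and marker genes, doublets left out, other totals, counts and clusters, and 3 added after seeing the data.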

Additional observations from a re-analysis of the deposited data

Results flagged for a closer look

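Actg2, the actin of visceral smooth muscle, was picked out because its genotype ratio pointed in opposite directions in 2 groups of cells. In mural cells its log2 ratio of Piezo1 fl/fl over control was 1.64 (1.08 to 2.23), and in all other kept cells it was -1.16 (-1.95 to -0.40). The interval of the other cells was the wider one, and Actg2 had no UMI in the endothelial cells of either library. The difference between these ratios was not tested, since each genotype has 1 library. The mural value rests on 33 control UMIs in 10 cells, the highest of which held 12, and on 135 Piezo1 fl/fl UMIs in 31 cells, the highest of which held 30. Without those 2 cells the mural log2 ratio was 1.93.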

How the results depend on the processing

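No paired analysis was possible because each genotype has 1 library and no result comes from a test, and for the same reason no replicate could be left out. Over 17 alternatives, 65 of 98 summary values stayed close to the reported value (within 1.5 times for counts of genes), 33 moved and 0 changed sign. The 3 alternatives that left out mixed cells, the highest-pericyte cluster of resolution 0.8 or the cell richest in each gene were chosen after seeing the data. For the share of mural cells, 7.37% and 7.97% met a limit of 2 mural genes, and a 10% mitochondrial limit left 113 and 142 cells (2.33% and 2.36%). The contractile median over other kept cells was, in control, 5.27 without doublets, 5.28 without mixed cells, 4.83 as a mean over cells, 4.52 under the 10% limit and 5.30 with mitochondrial, ribosomal and hemoglobin genes out of the total, and in Piezo1 fl/fl 5.91 as a mean over cells and 5.67 under the 10% limit. The pericyte median, 2.99 and 3.05 in the main values, was 3.34 and 3.40 as a mean over cells and, in control, 3.61 under the 10% limit. The contractile median between clusters was, in control, 1.27 at resolution 0.8, 1.74 when cells were split by marker share and 0.71 as a mean over cells, and in Piezo1 fl/fl 0.76 without mixed cells and 0.84 under the 10% limit. The split by marker share uses smooth muscle markers such as Acta2 and Myh11, which are also contractile genes. Its value is thus in part fixed by the split and is no independent check.

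The number of genes at least 2-fold higher and lower between genotypes was 25 and 10 without doublets, 98 and 82 with 30 UMIs as the only limit, 10 and 12 outside the highest-pericyte clusters of resolution 0.8, 61 and 100 within those clusters at resolution 0.4 and 42 and 9 in the other clusters. It was 33 higher under the 10% limit and 12 lower as a mean over cells. Of 252 values of 21 named genes, 244 kept their direction and 8 did not. Within the highest-pericyte clusters the log2 ratio was 0.12 for Ccn1, -0.38 for Cxcl2 and -0.96 for Il6, in the other clusters 2.66 for Cyp26b1, 0.32 for Ibsp and 3.47 for Pappa2, and outside the cluster of resolution 0.8 it was 0.79 for Cyp26b1 and -0.43 for Fcer1g. The cause was not tested. Genotype values of genes found in few cells rest on small numbers of UMIs, and 1 cell can hold many of them.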
